A study of Mus musculus with 7 samples.

Results

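The Slc25 family of mitochondrial carriers was examined in erythroblasts that lack the superoxide dismutase of mitochondria, SOD2, and in their wild-type counterparts. The members were all genes whose symbol starts with Slc25a and that had at least 1 probe set matched to that gene alone, apart from 1 gene of the prefix that the selection leaves out. This gave 43 carriers with 92 probe sets, out of 18193 genes and 45037 probe sets on the array. Each carrier was read on its brightest probe set, the one with the highest mean over the 7 arrays. A probe set shared by Slc25a37 and another gene was left out. A carrier was called dim when its mean over the 7 arrays was below 4.48, the median of all probe sets on the log2 scale. By this measure 33 carriers were not dim and 10 were dim (Slc25a2, Slc25a13, Slc25a16, Slc25a23, Slc25a27, Slc25a31, Slc25a32, Slc25a35, Slc25a41 and Slc25a54).

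RNA came from marrow erythroblasts of mice that had been irradiated and rebuilt with fetal liver cells, hybridised to Affymetrix arrays of the mouse genome. The donors were Sod2-/- or Sod2+/+ littermates from matings of heterozygous B6-Sod2tm1Cje mice, taken from E13.5 to E16.5 of embryonic life. All recipients were C57BL/6 mice carrying the Ly5.1 marker, 11 to 15 weeks old when irradiated, so both groups share the irradiation and the transplant. Cells were sorted for TER-119 and CD71, 2 surface proteins of red cell precursors, and not for donor origin, so host erythroblasts may be among them. There were 4 Sod2+/+ arrays (17, 29, 33 and 37) and 3 Sod2-/- arrays (31, 35 and 39), and 1 further Sod2-/- array was not analysed here. The submitters call the arrays of a group biological replicates.

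Slc25 proteins sit mostly in the inner mitochondrial membrane and exchange solutes between the matrix and the cytosol. In each, a repeated pair of membrane helices forms a gate that opens to one side at a time. Red cell precursors depend on several of them, since the first and last steps of heme synthesis take place in the matrix and need glycine, succinyl-CoA and iron there. The same membrane carries the respiratory chain, the main source of the superoxide that SOD2 removes.

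Promoters are shown for the 4 carriers that the results turn on most: Slc25a12, the only carrier past the test, Slc25a3 and Slc25a5, which passed it under other settings, and Slc25a39, the only carrier that was not dim and was higher on all Sod2-/- arrays. Each runs from 250 bases before to 50 bases after the RefSeq start of the gene, 5′ to 3′ on the gene's strand, in build GRCm38.p6. Capitals mark 4 searched motifs on either strand: GATA (GATAA or GATAG after an A or a T), NRF1 (GCGCNTGCG, part of its palindrome), ERR (TNAAGGTCA) and KLF1 (CCNCNCCC), where runs of capitals longer than the motif are overlapping matches of the same motif.
Slc25a12: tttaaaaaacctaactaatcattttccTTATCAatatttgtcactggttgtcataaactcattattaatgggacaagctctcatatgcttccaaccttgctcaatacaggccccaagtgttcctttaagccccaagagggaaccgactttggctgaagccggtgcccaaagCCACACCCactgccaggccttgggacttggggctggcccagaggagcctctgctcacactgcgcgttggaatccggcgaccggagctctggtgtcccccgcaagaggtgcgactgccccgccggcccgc
Slc25a3: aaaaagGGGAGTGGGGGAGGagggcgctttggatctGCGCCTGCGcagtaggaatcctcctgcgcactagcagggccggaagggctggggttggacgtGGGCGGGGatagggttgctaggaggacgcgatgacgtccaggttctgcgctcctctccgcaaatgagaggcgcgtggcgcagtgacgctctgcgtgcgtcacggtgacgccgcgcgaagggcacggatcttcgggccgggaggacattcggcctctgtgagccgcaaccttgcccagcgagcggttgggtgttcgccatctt
Slc25a5: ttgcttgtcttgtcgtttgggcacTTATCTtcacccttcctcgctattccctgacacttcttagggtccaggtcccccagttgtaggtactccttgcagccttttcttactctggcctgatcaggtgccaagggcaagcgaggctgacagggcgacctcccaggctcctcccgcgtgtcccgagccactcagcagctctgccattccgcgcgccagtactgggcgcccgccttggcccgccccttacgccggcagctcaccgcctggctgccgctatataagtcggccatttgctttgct
Slc25a39: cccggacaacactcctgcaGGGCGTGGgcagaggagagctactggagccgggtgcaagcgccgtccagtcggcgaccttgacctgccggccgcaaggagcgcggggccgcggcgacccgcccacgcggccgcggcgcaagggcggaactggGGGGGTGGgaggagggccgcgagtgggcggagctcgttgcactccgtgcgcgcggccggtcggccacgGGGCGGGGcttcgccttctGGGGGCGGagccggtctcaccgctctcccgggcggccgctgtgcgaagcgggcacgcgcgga
The stretch of Slc25a12 is chr2:71367706-71368005 on the minus strand, with 1 GATA and 1 KLF1 match. That of Slc25a3 is chr10:91123918-91124217 on the minus strand, with 1 NRF1 and 3 KLF1 matches. That of Slc25a5 is chrX:36795347-36795646 on the plus strand, with 1 GATA match, and that of Slc25a39 is chr11:102407468-102407767 on the minus strand, with 4 KLF1 matches. A promoter was found for 33 of the 43 carriers, 42 stretches in all, and Slc25a37 is not among them. The GATA motif was in 19.0% of these 42 against 29.8% of all 32851 promoters of this length, the NRF1 motif in 4.76% against 6.31%, the ERR motif in 0 against 1.28%, and the KLF1 motif in 73.8% against 49.5%. The median GC content was 59.8% for the carriers and 52.7% for all promoters, and the part of base composition in these shares was not tested.

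The arrays as a whole set the frame for these values. The 95th percentile of all probe sets lay between 8.42 and 8.71 on the Sod2+/+ arrays and between 8.20 and 8.42 on the Sod2-/- arrays, and the median log2 fold change of all genes with a mean between 8 and 10 was -0.29. The 12 erythroid markers, none of them dim, had mean log2 values of 11.44 to 11.55 in Sod2+/+ and 11.50 to 11.69 in Sod2-/-. Of the 11 B cell markers, 7 were called lower (adjusted p under 0.05 by limma), beside 4.47% of all genes, and their mean was 5.97 to 6.20 against 5.15 to 5.38. The 13 neutrophil markers, none called, had means of 10.48 to 10.94 in Sod2+/+ and of 10.51, 9.23 and 9.85 on Sod2-/- arrays 31, 35 and 39. The 10 macrophage markers had means of 4.80 to 4.96 in Sod2+/+, 4.88 and 4.87 on Sod2-/- arrays 31 and 35, and 6.35 on array 39. Of the T cell, megakaryocyte and early progenitor markers none was called. Sod2 itself was at 8.32, 8.62, 8.20 and 8.59 in Sod2+/+ and at 8.47, 8.09 and 8.61 in Sod2-/- on its brightest probe set. The allele lacks an internal part of the gene and the place of the probes relative to it was not analysed here, so this does not check the genotype.

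Slc25a12 was the only carrier past the test with all arrays as deposited, 1.53-fold lower in Sod2-/-, and it was past it in 6 of 21 other settings. No carrier was called higher with all arrays as deposited. Of the 43 carriers, 1 was lower and 0 were higher at an adjusted p under 0.05 (limma, Benjamini-Hochberg over all 45037 probe sets), where 4.47% of all genes were lower and 0.412% were higher. At an unadjusted p under 0.05 (limma), 8 carriers were lower and 3 higher, against 18.4% and 6.68% of all genes. At an adjusted p under 0.05 the methods' t-test called 0 carriers. Of all 18193 genes it called 2 with equal and 0 with unequal variances. On 8 carriers all Sod2-/- arrays were below all Sod2+/+ arrays (Slc25a3, Slc25a5, Slc25a10, Slc25a11, Slc25a12, Slc25a28, Slc25a30 and, dim, Slc25a16), where 14.8% of all genes had this pattern. On 3 carriers they were all above (Slc25a39 and, dim, Slc25a2 and Slc25a27), where 7.19% of all genes did. Among the carriers that were not dim, 7 of 33 were below without overlap and 1 was above, against 21.3% and 6.95% of all genes that were not dim. These shares are near those of all genes.

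**Figure D1:**
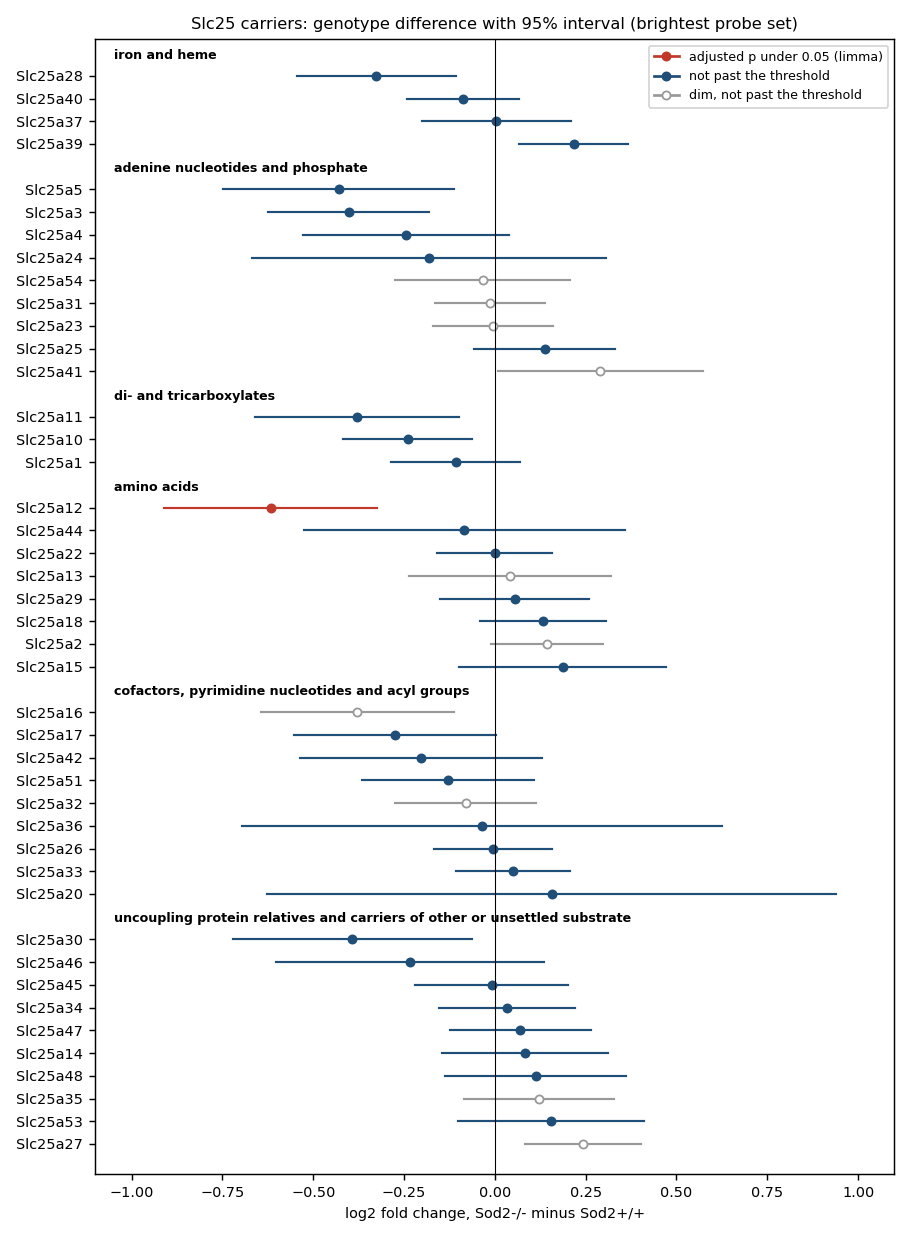
Log2 fold change of each of the 43 carriers, Sod2-/- minus Sod2+/+, on the x axis, with the 95% interval of limma as a bar and the carriers grouped by what they carry. Slc25a12, in red, is the only carrier past the threshold, and 25 points lie below 0 and 18 above.

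The family had no common direction. Its median log2 fold change, Sod2-/- minus Sod2+/+, was -0.01, with values from -0.62 to 0.29, beside a median of 0.02 over all genes. There were 25 carriers below 0 and 18 above, which turned to 20 below and 23 above, with a median of 0.03, when the arrays were quantile normalized. The difference followed brightness as it did for all genes: the 14 carriers with a mean between 6 and 8 had a median of -0.22 and all genes of that range -0.21. After quantile normalization those medians were both near 0, at -0.00 for the carriers and -0.02 for all genes. Among the 18 carriers with a mean between 4 and 6 the median was 0.06, beside 0.05 for all genes. Only 9 carriers differed by 1.2-fold or more, and 1 by 1.5-fold or more.

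The 4 carriers of iron and heme synthesis did not pass the test. Slc25a37, mitoferrin-1, brings iron into the mitochondria of developing red cells. Its log2 values were 12.04, 12.26, 12.21 and 12.32 in Sod2+/+ and 12.24, 12.32 and 12.08 in Sod2-/-. The groups overlap, and the difference was 0.00 with a 95% interval of -0.20 to 0.21 (adjusted p = 0.988).

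Slc25a28, mitoferrin-2, is the relative that supplies iron in other cell types. It read 6.35, 6.39, 6.50 and 6.52 in Sod2+/+ and 6.00, 6.01 and 6.33 in Sod2-/-, every Sod2-/- array below every Sod2+/+ array, though array 39 only just. The difference of -0.33 ± 0.10 (SE, n = 4 and 3) did not pass (adjusted p = 0.103 by limma).

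Slc25a39, which imports glutathione into mitochondria and is needed for heme synthesis, went the other way. It read 12.003, 12.064, 12.072 and 12.055 in Sod2+/+ and 12.236, 12.201 and 12.359 in Sod2-/-. All Sod2-/- arrays were above the narrow Sod2+/+ range, with a difference of 0.22 ± 0.07 (SE, n = 4 and 3) and an adjusted p of 0.115 by limma. It was past the threshold, at 0.33 with an adjusted p of 0.0343, when the arrays were quantile normalized. All 5 of its probe sets were above 0, from 0.18 to 0.26, though on the other 4 the groups overlap. The brightest probe set of Slc25a39, and some of its others, are of a type that may also bind related transcripts. Its paralogue Slc25a40 read 5.79, 5.83, 5.90 and 5.75 in Sod2+/+ and 5.66, 5.78 and 5.76 in Sod2-/-, with overlap, a difference of -0.09 and an adjusted p of 0.535 by limma.

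**Figure D2:**
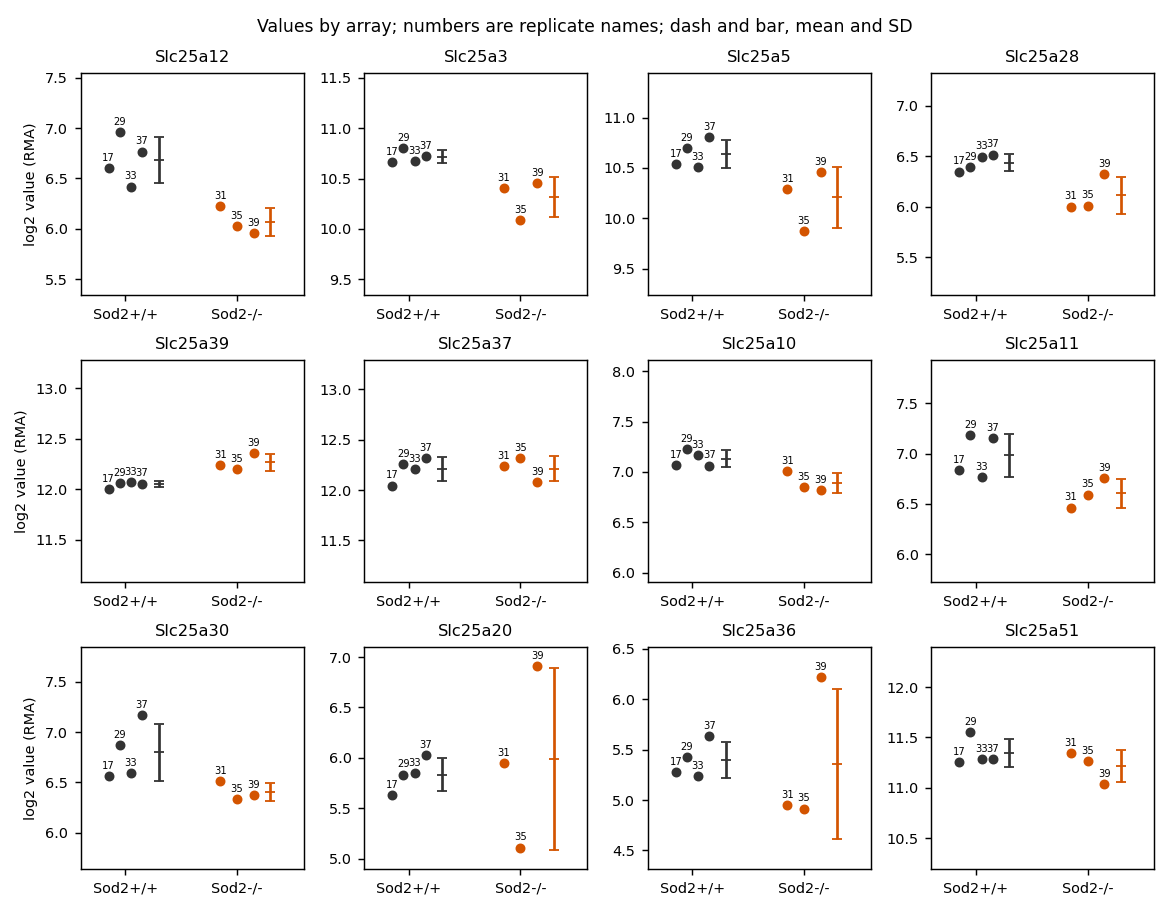
Log2 RMA values of 12 carriers by array, with Sod2+/+ in black and Sod2-/- in orange, numbers naming the array, and the dash and bar beside each group giving its mean and SD. Each panel spans the same number of log2 units, so that the narrow groups of Slc25a39 and the wide Sod2-/- groups of Slc25a20 and Slc25a36 can be compared by eye.

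The carriers of adenine nucleotides and phosphate hold the housekeeping exchangers of energy metabolism. None of the 9 passed, 7 were below 0 and 2 above, and the median of the 5 that were not dim was -0.24. Slc25a5, the ADP/ATP translocase 2 of dividing cells, read 10.53, 10.70, 10.51 and 10.81 in Sod2+/+ and 10.29, 9.87 and 10.46 in Sod2-/-. All Sod2-/- arrays were below, array 35 by the most. The difference was -0.43 ± 0.14 (SE, n = 4 and 3; adjusted p = 0.133 by limma). With chip lot as a block it was -0.76 and past the threshold (adjusted p = 0.0459), a value that rests on array 35, the one Sod2-/- array on the chip lot of the Sod2+/+ arrays. All 8 of its probe sets were below 0, from -1.23 to -0.37, and on 4 of them the groups did not overlap. Of these 8, 6 are of a type that may also bind related transcripts, and the mouse genome holds a pseudogene of Slc25a5, so signal of the gene and of its copy cannot be told apart.

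Slc25a3 is the phosphate carrier that feeds ATP synthase. It read 10.67, 10.80, 10.67 and 10.72 in Sod2+/+ and 10.40, 10.09 and 10.45 in Sod2-/-, again with array 35 lowest and no overlap. The difference was -0.40 ± 0.10 (SE, n = 4 and 3), with an adjusted p of 0.0623 by limma. It was past the threshold among bright probe sets alone (adjusted p = 0.0464) and, at -0.63, with chip lot as a block, which again rests on array 35 (adjusted p = 0.0351). On array 35 the mean of the neutrophil markers was also lowest, and the part of this in the values of Slc25a3 and Slc25a5 was not tested.

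Slc25a4, the ADP/ATP translocase 1 of heart and muscle, read 6.45, 6.45, 6.45 and 6.10 in Sod2+/+ and 6.18, 5.89 and 6.29 in Sod2-/-. The groups overlap through Sod2+/+ array 37, and the difference was -0.24 (adjusted p = 0.327). Slc25a31, the translocase of the germ line, was dim.

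The exchangers of ATP-Mg for phosphate did not share a direction. Slc25a24 read 7.29, 7.55, 7.22 and 8.12 in Sod2+/+ and 7.31, 7.14 and 7.63 in Sod2-/-, a difference of -0.18 that turned to 0.06 after quantile normalization (adjusted p = 0.703 as deposited). Slc25a25 read 6.85, 6.87, 6.86 and 6.93 in Sod2+/+ and 6.87, 7.20 and 6.98 in Sod2-/-, a difference of 0.14 (adjusted p = 0.425). In both the groups overlap. Slc25a23, Slc25a41 and Slc25a54, the others of this group, were dim. Slc25a41, at 0.29 with overlap, had the highest value of the family (adjusted p = 0.241 by limma).

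All 3 carriers of di- and tricarboxylates were below 0, with a median of -0.24, and none passed the test. After quantile normalization the median was -0.03 and Slc25a1 turned to 0.07. Slc25a11, the oxoglutarate carrier, exchanges oxoglutarate for malate and so works in the malate-aspartate shuttle together with Slc25a12. It read 6.83, 7.18, 6.77 and 7.15 in Sod2+/+ and 6.46, 6.59 and 6.76 in Sod2-/-, which leaves a gap of only 0.01 between array 39 and Sod2+/+ array 33. The difference was -0.38 ± 0.12 (SE, n = 4 and 3; adjusted p = 0.134 by limma).

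Slc25a10, the dicarboxylate carrier, exchanges malate or succinate for phosphate. It read 7.06, 7.23, 7.17 and 7.06 in Sod2+/+ and 7.01, 6.85 and 6.82 in Sod2-/-, without overlap, and differed by -0.24 ± 0.08 (SE, n = 4 and 3; adjusted p = 0.133 by limma). This came to -0.03 after quantile normalization. Slc25a1, the citrate carrier, overlapped between the groups, with a difference of -0.11 (adjusted p = 0.501).

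Of the 8 amino acid carriers, Slc25a12 was lower and the other 7 did not pass, with a group median of 0.05. Slc25a12 on chromosome 2, also called aralar, is the calcium-regulated carrier that sends aspartate out of the matrix in exchange for glutamate, a step of the malate-aspartate shuttle that moves reducing equivalents into mitochondria. On its brightest probe set it read 6.60, 6.96, 6.42 and 6.77 in Sod2+/+ and 6.22, 6.03 and 5.95 in Sod2-/-. All Sod2-/- arrays were below all Sod2+/+ arrays, with a gap of 0.19 between the nearest of them. The means were 6.69 ± 0.23 (SD, n = 4) and 6.07 ± 0.14 (SD, n = 3), and the log2 difference of -0.62 ± 0.13 (SE) had a 95% interval of -0.91 to -0.32 and an adjusted p of 0.0415 by limma. In sorted bulk cells, less RNA per cell and fewer cells that express a gene cannot be told apart.

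The call of Slc25a12 was not seen on its other, fainter probe sets and was lost under most settings. Its next probe set, with a mean of 4.67, was at 0.13 (adjusted p = 0.363), and the third, which was dim, was at 0.08. The mean of all its probe sets, these faint ones included, differed by -0.14 (adjusted p = 0.216 by limma). Over 21 other settings the value stayed below 0 and was past the threshold in 6. The adjusted p was 0.0676, 0.0837 and 0.107 without Sod2+/+ array 17, 29 or 37, was 0.0535, 0.136 and 0.110 without Sod2-/- array 31, 35 or 39, and was 0.0301 without Sod2+/+ array 33. Within fluidics station 1 (arrays 17, 29 and 31) the difference was -0.56. Within station 2 it was -0.60 (adjusted p = 0.215 by limma), and with station as a block -0.58 (adjusted p = 0.0544 by limma). With chip lot as a block it was -0.66 (adjusted p = 0.150 by limma), and among arrays 17, 29, 33, 37 and 35 of that 1 lot also -0.66. The mean of the B cell markers was lower on the same 3 arrays, though 4 of the 11 markers overlap between the groups. The part of these markers in the value of Slc25a12 was not tested.

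**Figure D3:**
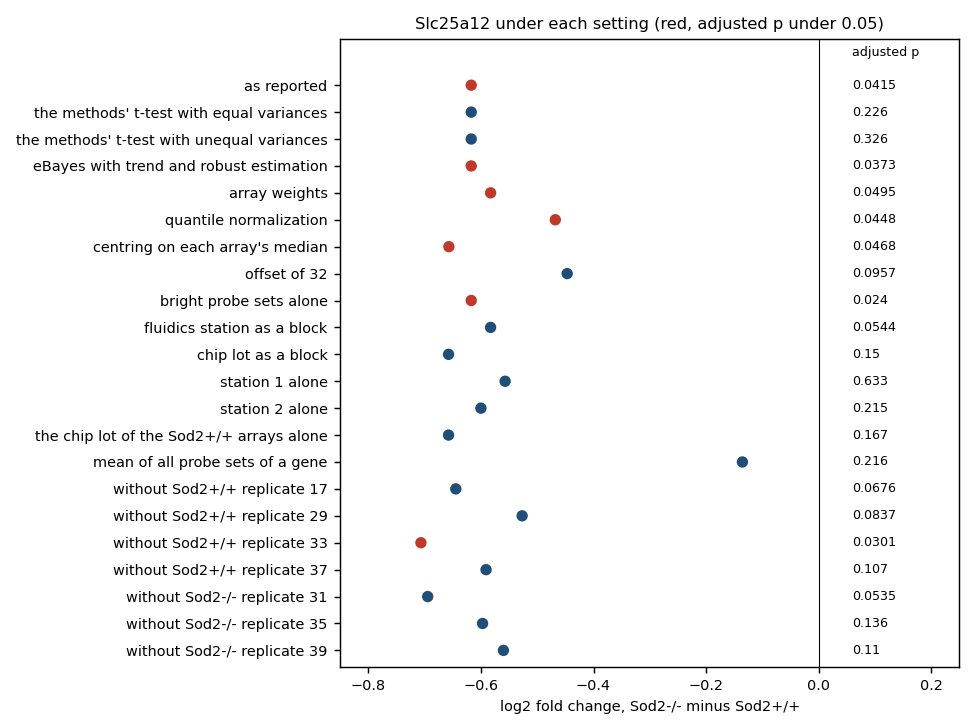
Log2 fold change of Slc25a12, Sod2-/- minus Sod2+/+, on the x axis under each of the 21 other settings and as reported, with the adjusted p printed at the right and red marking those under 0.05. All points lie below 0, between -0.71 and -0.14, and the point nearest to 0 is the mean of all probe sets of the gene.

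The paralogue of Slc25a12, Slc25a13 or citrin, was dim. The glutamate carriers Slc25a22 and Slc25a18 differed by -0.00 and 0.13, the ornithine carrier Slc25a15 by 0.19 and Slc25a29, a carrier of basic amino acids, by 0.05, all with overlap and with adjusted p-values from 0.390 to 0.996. Slc25a44, which carries branched-chain amino acids, was at -0.08 (adjusted p = 0.863). The dimmest of its 3 probe sets went against this: it read 6.29, 5.95, 6.23 and 6.36 in Sod2+/+ and 6.56, 6.64 and 6.63 in Sod2-/-, without overlap, a difference of 0.40 (adjusted p = 0.0686). Slc25a2, another ornithine carrier, was dim and read 3.61 to 3.77 in Sod2+/+ and 3.79 to 3.87 in Sod2-/- (difference 0.14, adjusted p = 0.294).

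None of the 9 carriers of cofactors, pyrimidine nucleotides and acyl groups passed, and their median was -0.08. Slc25a51, the importer of NAD+, read 11.25, 11.56, 11.28 and 11.28 in Sod2+/+ and 11.34, 11.27 and 11.04 in Sod2-/-. The groups overlap, and its 3 probe sets ran from -0.13 to 0.15. The coenzyme A carrier Slc25a42 was at -0.20, the peroxisomal carrier Slc25a17 at -0.28, the S-adenosylmethionine carrier Slc25a26 at -0.01 and the pyrimidine nucleotide carrier Slc25a33 at 0.05, with adjusted p-values from 0.260 to 0.980. Slc25a32, which brings folate into mitochondria, was dim. Slc25a16, a carrier linked to coenzyme A, was dim too and read 3.86 to 4.31 in Sod2+/+ and 3.59 to 3.74 in Sod2-/- (difference -0.38, adjusted p = 0.117).

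On 2 carriers of this set, picked after their values were seen, the Sod2-/- arrays lay far from each other. Slc25a20, the carnitine-acylcarnitine carrier that brings fatty acids to oxidation, read 5.63, 5.83, 5.85 and 6.02 in Sod2+/+ and 5.95, 5.11 and 6.91 in Sod2-/-, so that Sod2-/- held both the lowest and the highest array. Slc25a36, a pyrimidine nucleotide carrier, read 5.28, 5.43, 5.24 and 5.64 in Sod2+/+ and 4.95, 4.91 and 6.22 in Sod2-/-, with arrays 31 and 35 below and array 39 above every Sod2+/+ array. Their differences were 0.16 and -0.03, and without array 39 they were -0.31 and -0.46, with adjusted p-values of 0.537 and 0.104. The mean of the macrophage markers was high on this array too, at 6.35 against at most 4.96 elsewhere. Of the 10 markers, Cd163 and Axl were dim. On array 39 C1qa, C1qb and C1qc were at 7.65, 8.09 and 8.33. Vcam1, Marco and Cd163 lay there within the range of the other arrays. The part of the macrophage markers in the values of Slc25a20 and Slc25a36 was not tested.

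The 10 relatives of the uncoupling proteins and carriers of other or unsettled substrate had a median of 0.08, and none passed. Slc25a30, a relative of the uncoupling proteins, read 6.57, 6.87, 6.59 and 7.17 in Sod2+/+ and 6.51, 6.34 and 6.37 in Sod2-/-. The groups did not overlap, by a gap of 0.05, and the difference was -0.39 ± 0.14 (SE, n = 4 and 3; adjusted p = 0.176 by limma). Its other probe sets that were not dim were at -0.08 and -0.29. Slc25a27, the uncoupling protein relative of brain, was dim and read 3.97 to 4.10 in Sod2+/+ and 4.19 to 4.35 in Sod2-/- (difference 0.24, adjusted p = 0.0982). Slc25a46, an outer membrane protein that takes part in mitochondrial shape, was at -0.23 (adjusted p = 0.483 by limma). Another of its probe sets, with a mean of 6.63 beside 6.64, was at -0.43 (adjusted p = 0.157 by limma), also with overlap. Slc25a14, Slc25a34, Slc25a45, Slc25a47, Slc25a48 and Slc25a53 lay between -0.01 and 0.15 with overlapping groups, and Slc25a35 was dim.

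Probe sets of the same carrier mostly shared a direction. Of the 13 carriers with more than 1 probe set that was not dim, 6 had all of them below 0 (Slc25a4, Slc25a5, Slc25a10, Slc25a30, Slc25a42 and Slc25a46) and 4 had all above (Slc25a20, Slc25a25, Slc25a29 and Slc25a39). The other 3, Slc25a12, Slc25a44 and Slc25a51, had both signs. Probe sets of 1 gene come from the same RNA and are no replicates.

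**Figure D4:**
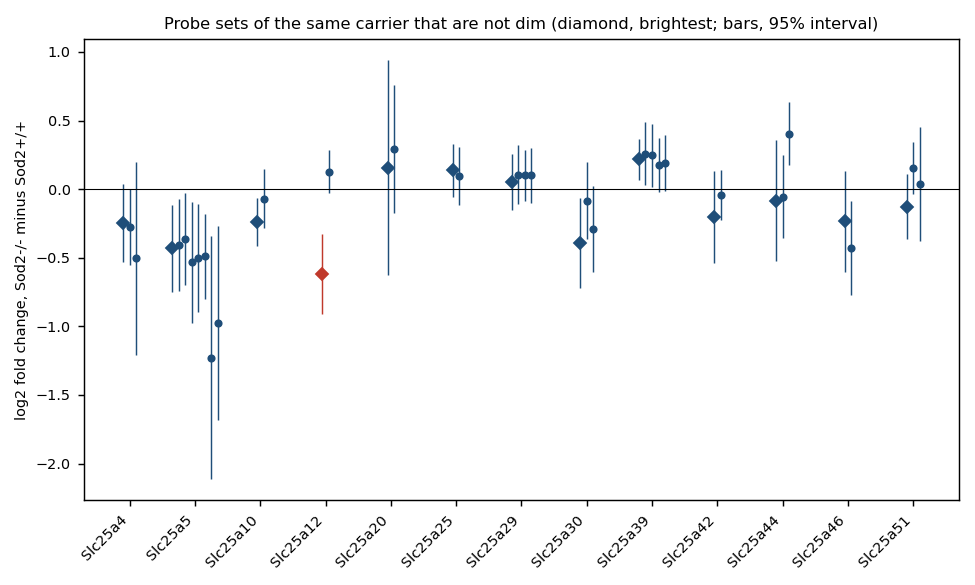
Log2 fold change, Sod2-/- minus Sod2+/+, on the y axis for every probe set that was not dim of the 13 carriers with more than 1, with 95% intervals and a diamond for the brightest. The 8 probe sets of Slc25a5 lie below 0, the 5 of Slc25a39 above, and those of Slc25a12 on either side.

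Carriers work with pores, channels and an import path of their own, listed here in 2 groups. Among 24 other genes of mitochondrial transport and their relatives, 4 were lower and 1 was higher. Of all genes 4.47% and 0.412% were, and of those that were not dim 6.73% and 0.585%. The median of the 24 was -0.14, or -0.04 after quantile normalization. Vdac2, a pore of the outer membrane, read 9.33, 9.54, 9.31 and 9.36 in Sod2+/+ and 8.95, 8.65 and 8.74 in Sod2-/- (difference -0.60, adjusted p = 0.0221). Micu2, a gate of the calcium uniporter, read 7.76, 8.23, 7.64 and 7.63 against 7.04, 6.54 and 6.43 (difference -1.14, adjusted p = 0.0231). In both, all Sod2-/- arrays were below all Sod2+/+ arrays.

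Mtch1, a distant relative of the carriers in the outer membrane, differed by -0.52 (adjusted p = 0.0263) and Cpt2, the enzyme that takes over acyl groups from Slc25a20, by -0.46 (adjusted p = 0.0406). Tspo2, the erythroid relative of the translocator protein, was the one that was higher, and whether it sits in mitochondria was not tested here. It read 10.40, 10.45, 10.39 and 10.34 in Sod2+/+ and 10.94, 10.86 and 10.95 in Sod2-/-, a difference of 0.52 (adjusted p = 0.0114) and a gap of 0.41 between the groups. Tspo, the relative found in most tissues, was at -0.10 (adjusted p = 0.485). On 9 of the 24 genes all Sod2-/- arrays were below all Sod2+/+ arrays, beside 14.8% of all genes and 21.3% of those that were not dim. The mitochondrial pore genes Vdac1 and Vdac3 and the pyruvate carrier subunit Mpc1 had this pattern without passing, at -0.37, -0.50 and -0.81. So did Sfxn1 and Ppif, at -0.29 and -0.24. The call of Tspo2 held whichever array was left out and was lost with chip lot as a block. Of the 4 lower calls, 0 held without Sod2+/+ array 37 or Sod2-/- array 35, 1 without Sod2+/+ array 29, 1 without Sod2-/- array 39 and 2 without Sod2-/- array 31, and within either station 0 of all 45037 probe sets passed.

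The import path of carriers runs from the receptors and pore of the outer membrane through small chaperones to the insertase of the inner membrane. Of 11 measured genes, 4 were lower and 0 higher, with a median of -0.44, or -0.27 after quantile normalization. On 9 of them all Sod2-/- arrays were below all Sod2+/+ arrays, beside 14.8% of all genes and 21.3% of those that were not dim. Of all genes 4.47% were called lower and 0.412% higher, and of those that were not dim 6.73% and 0.585%. All genes with a mean between 6 and 8 had a median of -0.21, and those between 8 and 10 one of -0.29. After quantile normalization these medians were -0.02 and -0.06. The small chaperones Timm13 (-0.59, adjusted p = 0.0286) and Timm10b (-0.88, adjusted p = 0.0405) and the outer membrane parts Tomm22 (-0.55, adjusted p = 0.0497) and Tomm40 (-0.40, adjusted p = 0.0498) were lower. Timm22, the insertase itself, was at -0.44 (adjusted p = 0.0521) and the receptor Tomm20 at -0.82 (adjusted p = 0.0679). Tomm70a, another receptor, was at -0.41 (adjusted p = 0.144 by limma), with a gap of 0.02 between the groups. Timm10 went the other way, with 7.56 to 7.78 in Sod2+/+ and 7.89 to 8.40 in Sod2-/-, a difference of 0.49 (adjusted p = 0.0615). Timm9, which was dim, was at 0.07 with overlap (adjusted p = 0.627 by limma). The 4 lower calls numbered 1 after quantile normalization (Timm13), 0 without Sod2+/+ array 17, 29 or 37 or Sod2-/- array 35, and 1 without Sod2-/- array 31 (Timm13). Without Sod2-/- array 39 none of these 4 passed, and Tomm20 did. No test compared these lists with the carriers.

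**Figure D5:**
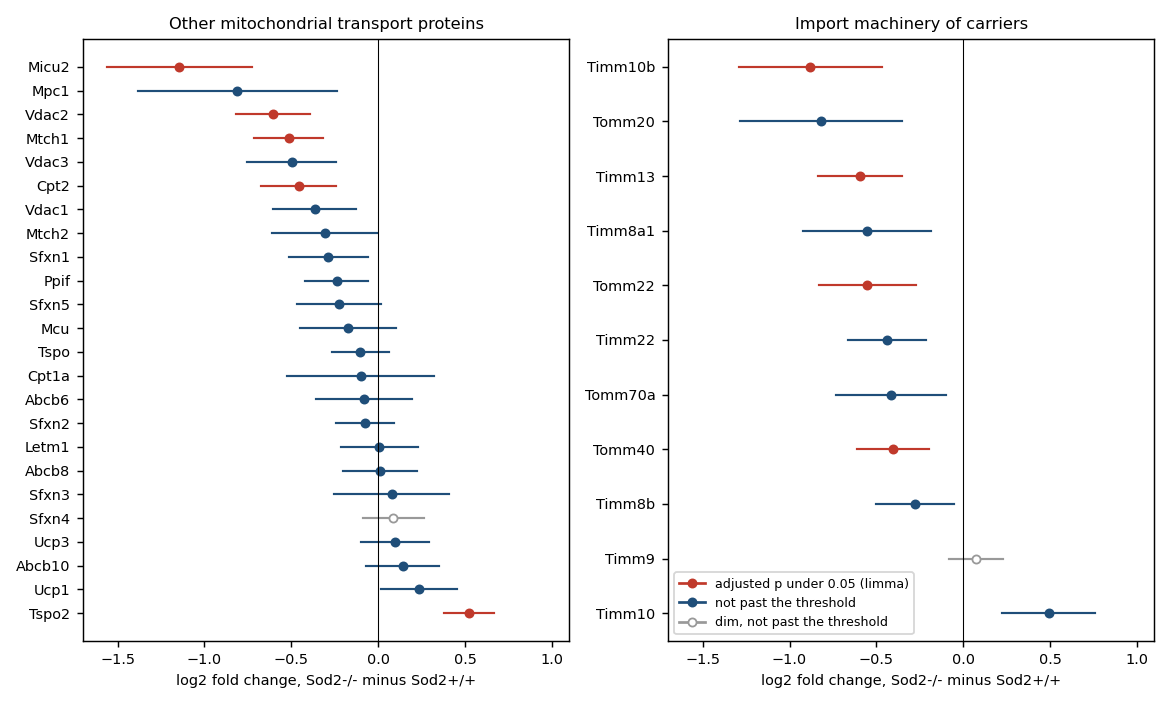
Log2 fold change, Sod2-/- minus Sod2+/+, on the x axis for 24 other genes of mitochondrial transport and their relatives (left) and 11 genes of the import path of carriers (right). Bars are 95% intervals of limma, and red is for an adjusted p under 0.05. Red marks 5 genes at left, Tspo2 alone above 0, and 4 at right, all below 0.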

How the data were processed

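RNA of 4 Sod2+/+ and 3 Sod2-/- erythroblast samples had been hybridised to 1-colour Affymetrix arrays. The deposited values were log2 intensities that the authors made by RMA, with GCOS 1.3.037 named in the submitters' processing notes. Whether the array not analysed here took part in the RMA is not known. As deposited, the arrays did not share 1 distribution, since their 95th percentiles ran from 8.20 to 8.71. The number of arrays limits the precision. Probe sets were named from GEO's platform table, and 64 controls were left out. Genotypes were compared in limma 3.58.1 (R 4.3.3) over 45037 probe sets, with no covariates and with Benjamini-Hochberg adjustment at 0.05, and the code was tested on simulated data. Each gene was read on its brightest probe set. Every carrier past the test or without overlap was named with values, as was each partner gene past the test. So were the carriers of iron, heme, adenine nucleotides and phosphate that were not dim. Further genes, such as Vdac1, Vdac3, Mpc1, Sfxn1, Ppif, Tspo, Timm22, Tomm20, Tomm70a, Timm10, Slc25a20, Slc25a36 and Slc25a41, were chosen after their values were seen. Members and lists were chosen with earlier results of these data known. The 21 alternatives comprised a t-test with equal or unequal variances and no fold change cutoff, eBayes settings, array weights, 2 normalizations and an offset of 32. They also comprised bright probe sets alone, fluidics station and chip lot, gene means and leaving out each array. Fluidics station and chip lot are those in the arrays' settings files. Promoter sequences are those of RefSeq on GRCm38.p6.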

Additional observations from a re-analysis of the deposited data

Results flagged for a closer look

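In 43 groups of 4 Sod2+/+ arrays, 1 array lay far from the other 3 by Dixon's test in 2 carriers, where chance flags about 1 in 20 groups. Slc25a4 read 6.10 on Sod2+/+ array 37 and 6.45 on each of the other 3, a gap of 0.982 of the whole range. Slc25a51 read 11.56 on Sod2+/+ array 29 and 11.25, 11.28 and 11.28 on the others, a gap of 0.901 of the range. Groups of 3 Sod2-/- arrays were not tested in this way.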

How the results depend on the processing

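No paired analysis was possible because the genotypes share no replicate number. The labels say that samples were sorted in pairs but not which made a pair. The count of carriers called lower, 1, was 0 with either t-test, an offset of 32, station as a block, station 1 or station 2 alone, the chip lot that holds every Sod2+/+ array and gene means, and 2 with bright probe sets alone (Slc25a3 and Slc25a12) and with chip lot as a block (Slc25a3 and Slc25a5). Carriers called higher numbered 1 after quantile normalization. The family median was 0.028 after quantile normalization, -0.048 after median centring and -0.045 in station 1. Partners called lower, 4, numbered 0 with either t-test, an offset of 32, within either station and on that chip lot, and those called higher, 1, numbered 0 in the same settings apart from the offset, and with chip lot as a block. Import genes called lower, 4, numbered 0 with either t-test, the offset, either station and that chip lot alone, 2 with array weights, and 1 with quantile normalization, station as a block or chip lot as a block. Import genes called higher, 0, numbered 1 (Timm10) with quantile normalization, bright probe sets or gene means. Leaving out 1 array gave 0 to 1 carriers lower and 0 to 0 higher, 0 to 3 partners lower and 1 to 1 higher, 0 to 5 import genes lower and 0 to 1 higher, and family medians from -0.03 to 0.00. Of the carriers, 22 kept their sign under all 21 alternatives and 21 did not, none of these with a value past the threshold. Over all probe sets 1530 passed as reported, 4 and 0 with the t-tests, 231 with the offset, 894 and 817 with station and chip lot as a block, 0 within each station (3356 and 5905 at an unadjusted p under 0.05), 502 on that chip lot alone, 856 of 18193 genes on gene means, 2436 of 22518 bright probe sets, and 143 to 1320 with 1 array left out.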
